A study of Ovis aries with 16 samples.

Results

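Adrenomedullin and the parts of its receptor were followed in the lung of newborn lambs: the ligand gene ADM, the receptor gene CALCRL and the 3 receptor activity modifying protein genes RAMP1, RAMP2 and RAMP3. Members were all probe sets that the array's annotation gives 1 of these gene symbols, which came to 7 of 24016 probe sets and 5 of 9155 genes, with 2 probe sets each for CALCRL and RAMP1. The family was chosen by its shunt and control levels among other things: it was picked with an earlier result of these data in view, the lower ADM level of shunt lambs. The differences between shunt and control lambs are therefore given for all members as a description, with no p-value for any of them, and they support nothing else. Members past a limma threshold are counted only beside the share of all probe sets or genes, to give the scale.

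The lambs fell into 2 groups of 8, with 1 array each. Shunt lambs had received, before birth and 9 ± 6 days ahead of term, a Gore-tex graft 8.0 mm wide and 2 mm long that joined the ascending aorta to the main pulmonary artery, so that blood passes from the aorta into the lung circulation. Control lambs came from ewes with a sham operation. Peripheral lung of both was taken at 3 days of age as whole tissue, so each value mixes all the cells of the lung, and fewer cells of a type cannot be told apart from less RNA per cell. The labels describe no lamb individually beyond its group, so sex, litter and breed are unknown and each array was taken as 1 lamb.

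Adrenomedullin is a secreted peptide that relaxes blood vessels, the pulmonary circulation included, and tightens the endothelial barrier. CALCRL, a G protein-coupled receptor, needs a RAMP partner at the cell surface: with RAMP2 or RAMP3 it binds adrenomedullin, and with RAMP1 it is the receptor of calcitonin gene-related peptide. The active receptor couples mainly to the stimulatory G protein and raises cyclic AMP. In mice, loss of Adm, Calcrl or Ramp2 is lethal before birth with oedema and faulty blood and lymphatic vessels, and ADM is a textbook target of the hypoxia-inducible factors.

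All values are log2 levels after RMA, the authors' normalization, and differences are shunt minus control with the standard error (SE) of a limma fit over all probe sets. Pairwise correlations of the 16 arrays ran from 0.98 to 0.995. The least typical array was control replicate 2, whose correlation with the others averaged 0.983 and whose weight in a weighted fit was 0.232. Array medians ran from 7.116 to 7.145 in shunt lambs and from 7.143 to 7.191 in control lambs, and the median difference over all probe sets was -0.01. RNA integrity, read as the 3' level less the 5' level over 5 control genes, was 1.31 ± 0.11 in shunt and 1.30 ± 0.19 in control lambs (SD, n = 8 each). The level of the poly-A spike probe sets nearly separated the groups, at 4.186 to 4.219 in shunt and 4.215 to 4.512 in control lambs. The highest value was that of control replicate 2, and the other controls ran from 4.21 to 4.3. Levels this low were near those of the dimmest genes, such as CAMP at percentile 1.18, where signal over background is unknown. What part the spike level had in the results was not tested. Some markers of the alveolar wall were bright: the type 2 cell genes SFTPC and SFTPB were at percentiles 99.4 and 98.1 of the genes, and the type 1 cell gene AGER at 93.5. Others were not, such as the type 2 cell gene SLC34A2 at 31.1 and the type 1 cell gene CLIC5 at 41.2.

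The ligand was at a lower level in shunt lung. ADM ran from 10.28 to 11.81 with a median of 11.18 in the 8 shunt lambs, against 11.52 to 12.17 with a median of 11.84 in the 8 control lambs. The groups overlapped: 5 shunt lambs lay below the lowest control lamb and shunt replicates 1, 4 and 7 lay within the control range, while 4 control lambs lay above the highest shunt lamb. The mean was 11.18 ± 0.48 in shunt and 11.82 ± 0.21 in control (SD, n = 8 each), a difference of -0.64 ± 0.17 (SE), or 0.64-fold the control level. All 8 shunt lambs were below the control mean. Of all 24016 probe sets this difference ranked 8 from the lowest. The spread among shunt lambs was 2.33 times that among controls, and shunt replicate 6 had the lowest level. Without that lamb the difference was -0.52, and without shunt replicate 1, the highest of its group, it was -0.73. The probe set was bright, at percentile 96.8 of all probe sets.

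The receptor was at a higher level in shunt lung with both of its probe sets, by unequal amounts. The brighter CALCRL probe set ran from 8.72 to 9.31 with a median of 8.91 in shunt lambs, against 8.75 to 8.95 with a median of 8.81 in control lambs. Shunt replicates 3, 5, 6 and 7 lay above the highest control lamb and shunt replicate 4 lay below the lowest, so the shunt lambs surrounded the controls on both sides. The mean was 8.98 ± 0.21 in shunt and 8.82 ± 0.06 in control (SD, n = 8 each), a difference of 0.15 ± 0.08 (SE), or 1.11-fold. The dimmer CALCRL probe set ran from 8.205 to 8.764 with a median of 8.42 in shunt lambs, against 7.946 to 8.208 with a median of 8.12 in control lambs. With it 7 of 8 shunt lambs lay above the highest control lamb, and shunt replicate 8, at 8.205, lay just under the control maximum of 8.208. Its mean was 8.45 ± 0.20 in shunt and 8.11 ± 0.09 in control (SD, n = 8 each), a difference of 0.35 ± 0.08 (SE), or 1.27-fold, which ranked 307 from the highest of all probe sets. Over lambs the pair of CALCRL probe sets moved together in the shunt group (r = 0.909, n = 8) and less so among the controls (r = 0.351, n = 8), where the spread was small. With the mean of both probe sets in place of the brighter one, the CALCRL difference was 0.25 ± 0.07.

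Of the receptor's partners, RAMP2 was higher in shunt lung, while RAMP1 and RAMP3 differed by less than the spread among lambs. RAMP2, the partner that makes CALCRL an adrenomedullin receptor in endothelium, ran from 11.12 to 11.52 with a median of 11.21 in shunt lambs, against 10.77 to 11.25 with a median of 11.10 in control lambs. All 8 shunt lambs were above the control mean, but the ranges overlapped: shunt replicates 3 and 8 lay above the highest control lamb and 5 control lambs lay below the lowest shunt lamb. The mean was 11.24 ± 0.14 in shunt and 11.04 ± 0.17 in control (SD, n = 8 each), a difference of 0.20 ± 0.07 (SE), or 1.15-fold. Like ADM this probe set was bright, at percentile 95.5, and the level of CALCRL was less bright, at percentiles 77.7 and 69. Such percentiles describe probe sets, and they do not set the amount of one RNA against another.

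RAMP3, the other partner for adrenomedullin, ran from 8.78 to 9.09 with a median of 8.96 in shunt lambs, against 8.81 to 9.25 with a median of 8.96 in control lambs. The mean was 8.94 ± 0.09 in shunt and 8.99 ± 0.15 in control (SD, n = 8 each), a difference of -0.04 ± 0.06 (SE), and the groups overlapped almost wholly. RAMP1, the partner for calcitonin gene-related peptide, ran with its brighter probe set from 8.17 to 8.61 in shunt lambs, against 8.19 to 9.12 in control lambs. The mean was 8.45 ± 0.14 in shunt and 8.48 ± 0.29 in control (SD, n = 8 each), a difference of -0.03 ± 0.10 (SE) that turned to 0.06 without control replicate 2, the lamb at 9.12. The dimmer RAMP1 probe set differed by 0.01 ± 0.09 (7.10 ± 0.16 in shunt and 7.09 ± 0.21 in control, SD, n = 8 each), and over all 16 lambs, with group means removed, the RAMP1 probe sets moved together (r = 0.728).

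**Figure D1:**
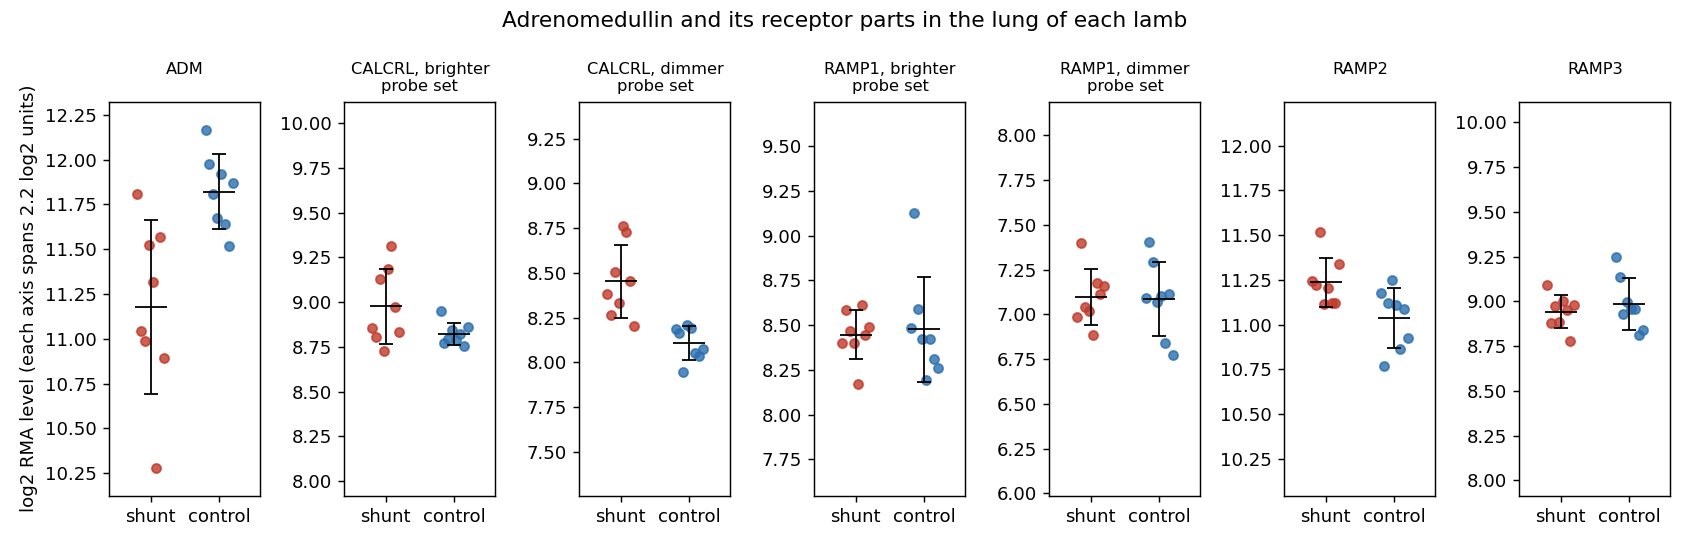
Log2 RMA level (y axis, each panel spanning 2.2 log2 units) of the 7 probe sets of ADM, CALCRL, RAMP1, RAMP2 and RAMP3 in 8 shunt and 8 control lambs; each point is a lamb, and the bar with whiskers is the mean ± SD. ADM lies at 11.18 ± 0.48 in shunt and 11.82 ± 0.21 in control lambs, the dimmer CALCRL probe set at 8.45 ± 0.20 and 8.11 ± 0.09, RAMP2 at 11.24 ± 0.14 and 11.04 ± 0.17, and the groups overlap in every panel.

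By limma with Benjamini-Hochberg adjustment over all probe sets, 0 of the 7 member probe sets passed an adjusted p of 0.05, as did 0.0708% of all probe sets. At an unadjusted p under 0.05 there were 3 of 7, of which 1 was lower and 2 were higher in shunt. The share of all probe sets was 13.7% (6.42% higher and 7.32% lower in shunt). With 1 probe set per gene there were 2 of 5 member genes, 1 lower and 1 higher. The share of all genes was 14.5% (6.63% higher and 7.92% lower in shunt). The groups did not overlap for 0 of 7 members and for 0.142% of all probe sets. These shares stand beside the members' counts only to give the scale, since the family was picked with this contrast known.

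Marker genes of the cell types in the tissue were measured in the same lambs. Beside their counts stands the share of all genes with an unadjusted limma p under 0.05, which was 14.5% (6.63% higher and 7.92% lower in shunt). Of 12 measured endothelial markers 9 were higher and 3 lower in shunt, 0 passed with 1 probe set per gene and 6 higher had an unadjusted p under 0.05, and their mean level ran from 9.50 to 9.81 in shunt and from 9.32 to 9.60 in control lambs. The leading ones were the transcription factor SOX18 (0.58 ± 0.17) and the adhesion molecule PECAM1 (0.28 ± 0.05, limma adjusted p = 0.0559). The dimmer PECAM1 probe set was at 0.35 ± 0.06 and rose (limma adjusted p = 0.0384 over all probe sets). The dim markers VWF and CLDN5, chosen here after their values were seen, were at -0.11 each, and VWF lay at percentile 4.84 of the genes. Another VWF probe set, similarly dim, was at 0.04. Taken relative to the mean of the endothelial markers in the same lamb, the brighter CALCRL probe set differed by -0.003, the dimmer by 0.19 and RAMP2 by 0.04, while ADM differed by -0.80. On the same scale RAMP3 differed by -0.2 and the RAMP1 probe sets by -0.186 (brighter) and -0.145 (dimmer). Type 2 cell markers were lower in 7 of 7, with 0 past the threshold and 3 at an unadjusted p under 0.05, led by SFTPB (-0.23 ± 0.09) and the phosphate transporter SLC34A2 (-0.34 ± 0.14). Another SFTPB probe set was at -0.05. The mean level of the type 2 cell markers ran from 10.4 to 10.82 in shunt and from 10.61 to 10.94 in control lambs. Relative to their mean ADM differed by -0.47, the CALCRL probe sets by 0.33 (brighter) and 0.52 (dimmer) and RAMP2 by 0.37. On this type 2 scale the RAMP1 probe sets differed by 0.15 (brighter) and 0.19 (dimmer) and RAMP3 by 0.13. Type 1 cell markers were lower in 5 of 6, with 3 at an unadjusted p under 0.05 and 0 past the threshold, led by the water channel AQP5 (-0.26 ± 0.06) and CLIC5 (-0.34 ± 0.13), at mean levels from 10.97 to 11.24 in shunt and from 10.94 to 11.41 in control. Of 7 macrophage markers 3 were higher and 4 lower with 0 past the threshold, at mean levels from 8.96 to 9.63 in shunt and from 8.75 to 9.41 in control, and relative to their mean ADM differed by -0.72. On this macrophage scale the CALCRL probe sets differed by 0.08 (brighter) and 0.27 (dimmer) and RAMP2 by 0.125. The RAMP1 probe sets differed by -0.10 (brighter) and -0.06 (dimmer) and RAMP3 by -0.12. The leading macrophage markers were the scavenger receptor MSR1 (0.50 ± 0.15) and the co-receptor CD14 (0.42 ± 0.16), but other MSR1 probe sets were at -0.14 and 0.11. What part the make-up of the tissue had in the members' differences was not tested beyond these values.

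Whether lambs with more ligand RNA also had more or less RNA of the receptor parts was asked within groups, where the contrast of shunt with control does not enter. Each of the 4 receptor genes, with its brightest probe set, was related to ADM over the 8 shunt lambs, over the 8 control lambs and over all 16 with group means removed, which made 12 relations adjusted together. None passed: the smallest adjusted p was 0.327 for Pearson's r and 0.441 for Spearman's rho. The 8 lambs of each group limit the precision of these values.

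In shunt lambs ADM and CALCRL had r = -0.566 (exact permutation p = 0.145, adjusted p = 0.434) and rho = -0.333 (exact permutation p = 0.428, adjusted p = 0.644). Shunt replicate 6 had the lowest ADM and the highest CALCRL level of all 16 lambs, and without the 2 shunt lambs farthest from the median of ADM r was -0.05, so that the value rested on those lambs. Without shunt replicate 6 alone r was -0.16. With the dimmer CALCRL probe set r was -0.30 in shunt lambs and -0.17 over all 16 lambs, an alternative chosen after seeing the data. In control lambs the same pair had r = 0.578 (exact permutation p = 0.133, adjusted p = 0.434) and rho = 0.333 (exact permutation p = 0.428), and r turned to -0.54 without the 2 farthest lambs. Over all 16 lambs, with group means removed, r was -0.43 (permutation p = 0.221, adjusted p = 0.529) and rho was -0.21 (permutation p = 0.507). Only means were removed, and the shunt spread was 2.33 times the control spread for ADM and 3.37 times for CALCRL. The shunt lambs therefore weighed more in this r, which joins groups whose own r had opposite signs.

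For the RAMPs the highest single value was that of ADM with RAMP3 in control lambs, with r = 0.764 (exact permutation p = 0.0273, adjusted p = 0.327) and rho = 0.619 (exact permutation p = 0.115). It was 0.26 without the 2 farthest lambs, and in shunt lambs the pair had r = 0.01 and rho = 0.02 (exact permutation p = 0.984 and 0.977). ADM with RAMP1 in shunt lambs had r = -0.581 (exact permutation p = 0.132, adjusted p = 0.434) and rho = -0.762 (exact permutation p = 0.0368, adjusted p = 0.441), against r = 0.31 and rho = 0.262 in control lambs (exact permutation p = 0.461 and 0.536). The shunt value of ADM with RAMP1 was -0.37 without shunt replicate 6, -0.86 without shunt replicate 5 (adjusted p = 0.105) and -0.42 without the 2 farthest lambs. ADM with RAMP2 had r = -0.14 and rho = -0.31 in shunt lambs (exact permutation p = 0.728 and 0.462) and r = -0.02 and rho = 0.05 in control lambs (exact permutation p = 0.957 and 0.935). The shunt value of ADM with RAMP2 rested on single lambs: r was -0.63 without shunt replicate 6 (adjusted p = 0.439), -0.80 without the 2 farthest lambs and -0.01 without shunt replicate 3. Over all 16 lambs with group means removed, r of ADM was -0.12 with RAMP1, -0.09 with RAMP2 and 0.26 with RAMP3, with permutation p of 0.582, 0.742 and 0.264 and rho of -0.18, -0.28 and 0.18 (permutation p = 0.505, 0.304 and 0.495). No difference between the groups in these relations was tested.

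**Figure D2:**
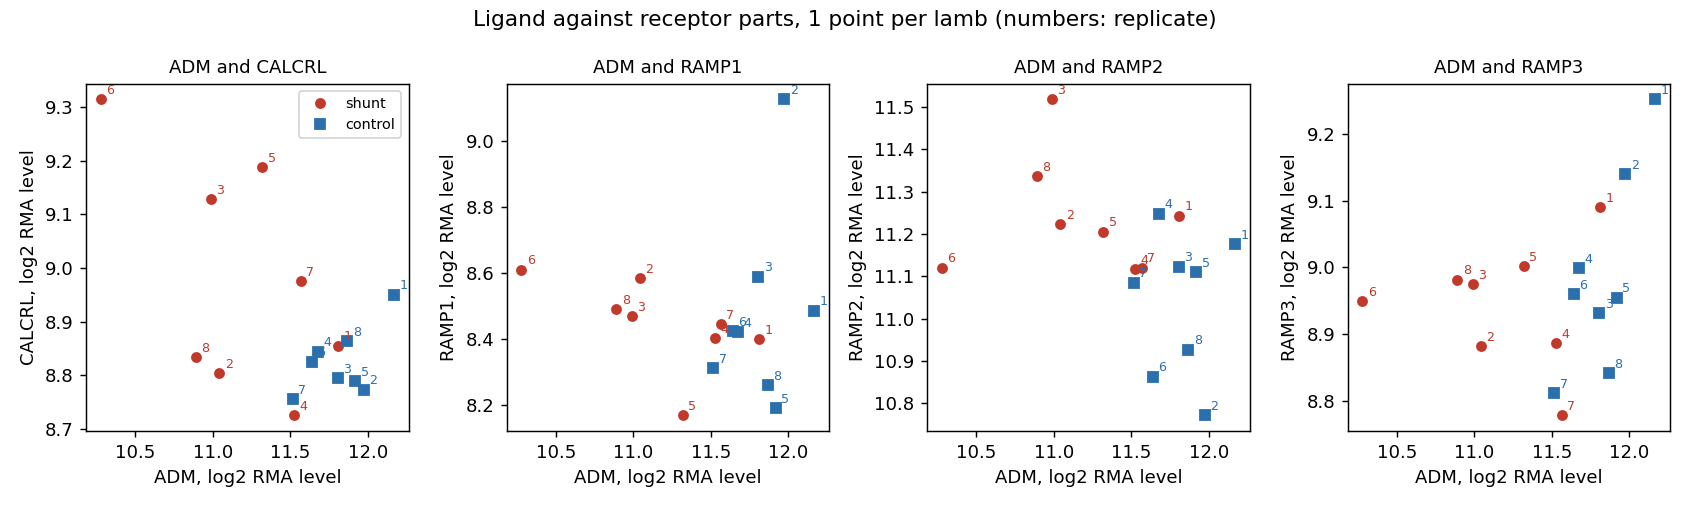
Level of each receptor gene (y axis, log2 RMA) against that of ADM (x axis, log2 RMA) in the same lamb, with shunt lambs as circles, control lambs as squares and the replicate number beside each point. Shunt replicate 6 lies alone at the low end of ADM, at 10.28, and at the top of CALCRL, at 9.31, and control replicate 2 lies alone at the top of RAMP1, at 9.12.

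The members of the receptor were also related to each other, a family of 9 relations added after the data were seen, of CALCRL with each RAMP in the same 3 sets of lambs. None passed, with all adjusted p at 0.887 for Pearson's r and at 0.977 for Spearman's rho. CALCRL with RAMP2 had r = 0.07 and rho = 0.10 in shunt lambs (exact permutation p = 0.881 and 0.84) and r = 0.312 and rho = 0.429 in control lambs (exact permutation p = 0.463 and 0.299).

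Among the genes that make, bind or break down the peptide, differences stood on both sides and 0 of 5 measured genes passed. Tests of these and of all other genes were made with limma over 9155 genes, with 1 probe set per gene, where 0.0874% of genes passed. Before adjustment 14.5% of genes were under 0.05, namely 6.63% on the higher and 7.92% on the lower side in shunt. PAM, the enzyme that amidates the peptide's end and so makes it active, was 12.28 ± 0.13 in shunt and 12.04 ± 0.19 in control lambs (SD, n = 8 each), a difference of 0.24 ± 0.08 (SE, limma adjusted p = 0.207) with 8 of 8 shunt lambs above the control mean. Its other probe set was at 0.06. MME, the membrane peptidase neprilysin that cleaves adrenomedullin among other peptides, was 11.27 ± 0.29 in shunt and 11.57 ± 0.23 in control lambs, a difference of -0.30 ± 0.12 (limma adjusted p = 0.267) with 7 of 8 shunt lambs below the control mean and another probe set at -0.22. The peptidase DPP4 was at -0.19 ± 0.12, the endothelin-converting enzyme ECE1 at 0.06 ± 0.10 and the gelatinase MMP2 at -0.0004 ± 0.10.

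Other receptors near the system gave small values. ACKR3, an atypical receptor proposed to take up adrenomedullin without G protein signalling, was at 0.15 ± 0.12 (limma adjusted p = 0.562), and CRCP, a protein that aids signalling of the CALCRL and RAMP1 pair, was at 0.003 ± 0.06. Of 11 other receptors reported to pair with RAMPs 5 were measured, 2 higher and 3 lower with 0 past the threshold. Of these the parathyroid hormone receptor PTH1R was at 0.20 ± 0.10 (limma adjusted p = 0.369) and the vasoactive intestinal peptide receptor VIPR2 at -0.15 ± 0.06 (limma adjusted p = 0.264), with 8 of 8 shunt lambs below the control mean of VIPR2 and another of its probe sets at -0.12. No probe set with 1 symbol was found for the related peptides CALCA, CALCB, ADM2, ADM5 and IAPP or for the receptors CALCR and GPR182, which were not analysed here.

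The signalling genes below the receptor lay close to 0. Of 29 genes of the cyclic AMP list 19 were measured, 13 higher and 6 lower, with a median difference of 0.03 against -0.01 for all genes, and 0 passed. The stimulatory G protein gene GNAS was at -0.03 ± 0.05, the kinase subunits PRKACA and PRKACB at 0.005 ± 0.04 and 0.15 ± 0.08, the regulatory subunit PRKAR1B at -0.12 ± 0.05, the transcription factor CREB1 at -0.06 ± 0.07 and the cyclic AMP sensor RAPGEF3 at 0.05 ± 0.12. The other GNAS probe sets ran from -0.23 to 0.07. Of 10 measured genes that switch off or traffic the receptor 6 were higher and 4 lower, with a median of 0.003 and 0 past the threshold. Among them the receptor kinase GRK5 was at 0.15 ± 0.06 and the endosome protein RAB7A at 0.14 ± 0.06, at limma adjusted p of 0.284 and 0.29, and the arrestins ARRB1 and ARRB2 were at -0.05 ± 0.08 and 0.18 ± 0.13. The other RAB7A probe set, of similar brightness, was at 0.003. Without shunt replicate 7, the highest of its group, ARRB2 was at 0.13.

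Hypoxia-responsive genes, the class that ADM belongs to, did not share one direction. Of 35 listed genes 28 were measured, 13 higher and 15 lower, with a median difference of -0.01 and 0 past the threshold. At an unadjusted p under 0.05 there were 5 higher and 1 lower, against 6.63% and 7.92% of all genes. The list also holds subunits of the hypoxia-inducible factors themselves, HIF1A, EPAS1 and ARNT, so its counts are not those of target genes alone. HIF1A and EPAS1 were among the 5 higher. The factor subunits HIF1A (0.20 ± 0.06, limma adjusted p = 0.211) and EPAS1 (0.21 ± 0.08, limma adjusted p = 0.245) were on the higher side, with 8 and 7 of 8 shunt lambs above the control mean. The other EPAS1 probe set, of similar brightness, was at 0.08 ± 0.05. The collagen-modifying enzyme PLOD2 had the smallest p (0.40 ± 0.12, limma adjusted p = 0.201). VEGFA, the endothelial growth factor, was on the lower side like ADM, at 12.57 ± 0.20 in shunt and 12.77 ± 0.12 in control lambs (SD, n = 8 each), a difference of -0.20 ± 0.08 (SE, limma adjusted p = 0.277) with 8 of 8 shunt lambs below the control mean. The glucose transporter SLC2A1 was at -0.17 ± 0.08, the oxygen sensor EGLN3 at -0.24 ± 0.19, BNIP3 at -0.07 ± 0.10 and NDRG1 at 0.05 ± 0.13. Other BNIP3 probe sets were at -0.27 and -0.07. Most of the EGLN3 value came from control replicate 2, without which the difference was -0.04.

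**Figure D3:**
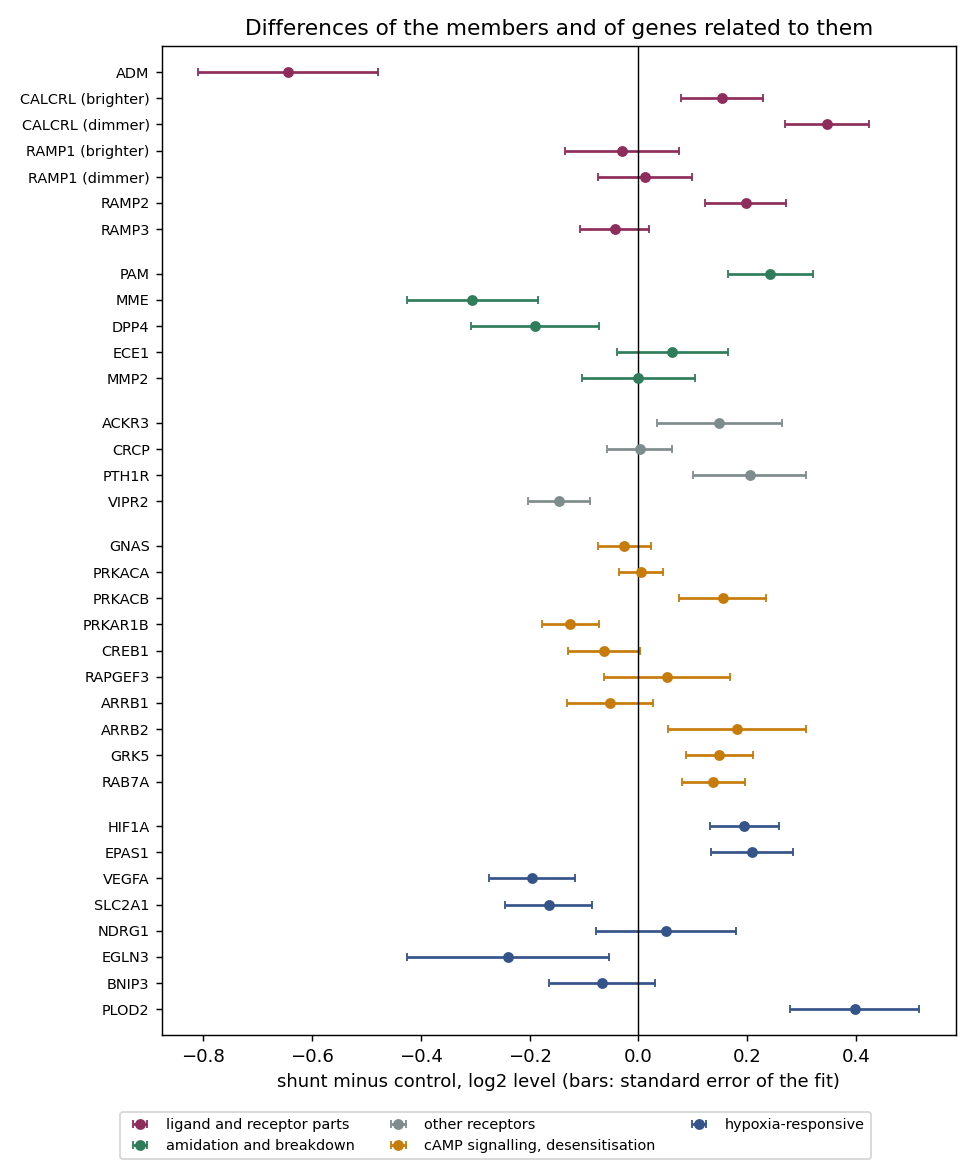
Shunt minus control difference in log2 level (x axis, bars are the standard error of the fit) of the 7 member probe sets and of genes related to them, coloured by role. ADM, at -0.64, lies farthest from 0, HIF1A and EPAS1 lie at 0.20 and 0.21, and VEGFA lies at -0.20. Genes other than the members are shown with their brightest probe set only.

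The genes whose level was most like that of ADM over the 16 lambs, after each group's mean was removed, were ERLIN2 (r = 0.846), the prostaglandin reductase PTGR1 (r = 0.845), the Golgi protein GOLGA4 (r = 0.808), the junction protein CGN (r = 0.79), PIGZ (r = 0.787) and the transcription factor FOXP2 (r = 0.766). Most opposed were WHAMM (r = -0.864), the fibrinogen chain FGB (r = -0.823) and PPAN (r = -0.808). Over 9154 genes these r values had a median of -0.05, with 5% of genes above 0.448, and since they are the extremes of so many they carry no p. All these values come from the same 16 arrays, and the shunt lambs, with 2.33 times the control spread of ADM, weighed more in them. FGB and FOXP2 were dim, at percentiles 3.97 and 12.9 of the genes, where signal over background is unknown. The groups were not alike for every gene: r of GOLGA4 with ADM was 0.96 in shunt and 0.276 in control lambs, and that of CGN was 0.96 and 0.269. In CGN control replicate 6 lay far from the other controls, at 9.54 against 9.88 to 10.06. Whether r differed between the groups was not tested. PTGR1 and WHAMM kept similar values in both groups, at 0.849 and -0.907 in shunt and 0.837 and -0.845 in control. Without shunt replicates 1 and 6, the 2 farthest in ADM, r was 0.73 for PTGR1, 0.678 for ERLIN2 and -0.823 for WHAMM, and 0.349 for PIGZ. Between the groups PTGR1 was at -0.27 ± 0.12 (limma adjusted p = 0.304) and the other 8 genes ran from -0.21 to 0.08.

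**Figure D4:**
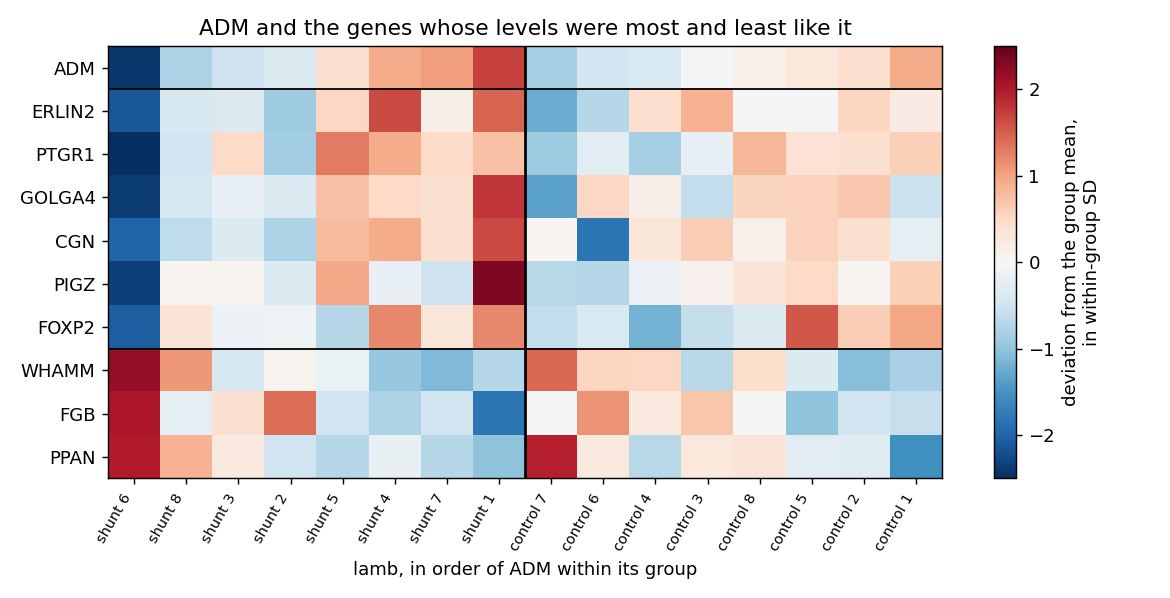
Deviation of each lamb from its group's mean, in units of the within-group SD (colour), for ADM and the 6 genes most like it and 3 most opposed to it, with shunt lambs left and control lambs right, each in order of ADM. The r values over the 16 lambs run from 0.766 to 0.846 for the like genes and from -0.864 to -0.808 for the opposed genes.

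For CALCRL the most alike were CXCL5 (r = 0.727), PARM1 (r = 0.723), COLEC11 (r = 0.708), ELF3 (r = 0.669), ZBTB33 (r = 0.668) and ZNF143 (r = 0.668), and the most opposed were the kinase PAK1 (r = -0.826), CBS (r = -0.721) and NT5C (r = -0.705), where 5% of genes were above 0.347. Of the 9, PARM1 differed most between the groups (0.46 ± 0.11, limma adjusted p = 0.104). CXCL5 and NT5C lay at percentiles 2.37 and 6.54 of the genes, where signal over background is unknown. The spread of CALCRL was 3.37 times as large in shunt as in control lambs, so the shunt lambs weighed more in these r values. The r of ZNF143 was 0.771 in shunt and -0.002 in control lambs. Without shunt replicates 4 and 6, the 2 farthest in CALCRL, r was 0.725 for PARM1, 0.745 for COLEC11, 0.376 for ELF3 and -0.675 for PAK1.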

How the data were processed

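Lung RNA of 8 shunt and 8 control lambs had been hybridized, 1 array per lamb, to bovine Affymetrix probe sets. The log2 levels are those the authors deposited. Per the submitters' processing notes they come from RMA, with no version named. Nothing in them tells which probe sets were above background, and detection calls were not used here. Sheep RNA may bind a bovine probe less well where the sequences differ, which can make levels, and differences, look smaller. The number of arrays limits the precision.

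After 112 of 24128 probe sets, the manufacturer's controls, were left out, 24016 were fitted with limma 3.58.1 in R 4.3.3 (lmFit and eBayes, no covariate, two-sided, Benjamini-Hochberg at 0.05). Genes were fitted likewise with the probe set of highest mean. The annotation gave 1 symbol for 13292 probe sets, several for 86 and none for 10638, and all 5 members are in the sheep RefSeq gene table. Relations over lambs were tested two-sided by exact permutation of pairings in each group of 8, and with 100000 permutations within groups over 16. Fits were tested on simulated data. The members, the gene lists and the rule for named genes (all members, set genes by role, the 2 genes of smallest p in each list, and the genes most like or most opposed to ADM and CALCRL) were chosen with earlier results of these data known. Alternatives were other normalizations, array weights, a trended prior, an RNA quality covariate, a filter on dim probe sets, other probe sets for a gene, a replicate block and each array left out in turn. Figures and permutations used Python 3.11.15 (numpy 2.4.6, matplotlib 3.10.9).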

Additional observations from a re-analysis of the deposited data

Results flagged for a closer look

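In 10 of 178 sets of 8 values the highest or lowest lamb lay far from its group, its distance to the next lamb being large for the whole spread. At 1 in 20, the rate for independent and normally distributed values, about 9 such sets would come by chance. The sets share arrays and genes and their distribution was not checked, so that number is only a rough scale. Control replicate 2 made up 5 of the 10. It was the lowest control in average array correlation (0.9828 against 0.9904 to 0.9926 in the other controls) and in the mean level of the macrophage markers (8.75 against 9.21 to 9.41), and the highest in poly-A spike probe sets (4.51 against 4.21 to 4.3), in the brighter RAMP1 probe set (9.12 against 8.19 to 8.59) and in EGLN3 (8.23 against 6.45 to 6.9). Control replicate 6 was the lowest control in CGN (9.54 against 9.88 to 10.06) and the highest in NT5C (5.58 against 5.28 to 5.37).

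In the shunt group, replicate 3 had the highest mean level of the endothelial markers (9.81 against 9.5 to 9.63), replicate 7 the highest ARRB2 (6.83 against 6.27 to 6.53) and replicate 2 the highest MSR1 (9.08 against 8.05 to 8.49). ADM, CALCRL, RAMP2 and RAMP3 had no such lamb in either group.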

How the results depend on the processing

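No member probe set passed under any alternative: the count stayed 0 with every normalization, weighting, covariate, filter, block and single array left out. Whole-table counts moved more. Of all probe sets 17 passed, against 26 after centring on array medians, 10 after renewed quantile normalization, 45 with array weights, 32 with the 3' minus 5' covariate and 6 to 75 with single arrays left out (75 without shunt replicate 1). Of all genes 8 passed, against 5 after quantile normalization or cyclic loess, 17 with array weights and 2 to 64 with single arrays left out (64 without shunt replicate 1). With a replicate block 0 probe sets and 0 genes passed by limma, with 2902 and 1151 at an unadjusted p under 0.05. Deviations of same-numbered lambs correlated at -0.259 to 0.222. The labels do not say whether equal numbers mark pairs and these values cannot settle it, so the lambs were not treated as pairs. For these counts the cause was not tested.

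The ADM difference ran from -0.73 to -0.52 and that of RAMP2 from 0.15 to 0.23 over arrays left out and other normalizations, weights, covariates and blocks. Relative to the endothelial marker mean, an alternative chosen after seeing the data, the brighter CALCRL probe set was at -0.00335 and RAMP2 at 0.0408. On that scale RAMP3 was at -0.2 and the RAMP1 probe sets at -0.186 and -0.145. Relative to the type 2 cell marker mean, likewise chosen later, ADM was at -0.47, the CALCRL probe sets at 0.329 and 0.522 and RAMP2 at 0.373. There the RAMP1 probe sets were at 0.146 and 0.187 and RAMP3 at 0.132. RAMP1 changed sign with the brighter probe set under array weights (0.04), without control replicate 2 (0.06) and without shunt replicate 5 (0.01), and with the dimmer one without control replicate 6 or 8 or shunt replicate 2 (-0.02 to -0.03). Correlations that changed sign were those of ADM with CALCRL without the 2 farthest lambs (-0.537 in control, 0.103 over all), with RAMP1 over all lambs (0.065 without the 2 farthest, -0.368 to 0.0387 with single arrays left out), with RAMP2 in control (0.0476 as rho, -0.359 to 0.237 with single arrays left out) and with RAMP3 in shunt (-0.628 without the 2 farthest, -0.495 to 0.358 with single arrays left out). None of these relations passed in any setting. Of the cell type markers 1 passed under 6 settings and 3 without shunt replicate 1.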

Other observations

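Of the remaining marker lists 0 genes passed by limma. Their counts at an unadjusted p under 0.05 stand beside 6.63% of all genes higher and 7.92% lower in shunt. Smooth muscle markers were higher in 6 of 8, with 4 at an unadjusted p under 0.05, led by MYH11 (0.33 ± 0.11) and TPM2 (0.37 ± 0.12), though another TPM2 probe set was at -0.05. Their mean level ran from 9.94 to 10.25 in shunt and from 9.69 to 10.22 in control lambs. Of 4 lymphatic markers, of interest because the receptor serves lymphatic vessels in mice, 2 were higher and 2 lower with 0 at an unadjusted p under 0.05; the chemokine CCL21 and MMRN1 were at 0.36 ± 0.18 and 0.36 ± 0.28, and the mean level of the list ran from 8.86 to 9.25 in shunt and from 8.53 to 9.26 in control.

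Neutrophil markers were lower in 6 of 6, with 3 at an unadjusted p under 0.05, namely ELANE (-0.24 ± 0.10), MPO (-0.17 ± 0.07) and CAMP (-0.12 ± 0.06). These were dim, at percentiles 15.4, 21.8 and 1.18 of the genes, where signal over background is unknown. Another MPO probe set was at -0.05. Airway markers were lower in 5 of 5, with 2 at an unadjusted p under 0.05, TFF3 (-0.63 ± 0.23) and BPIFA1 (-0.26 ± 0.11). Erythroid markers were higher in 5 of 7, with 0 at an unadjusted p under 0.05, HBB at 0.68 ± 0.36 and AHSP at -0.18 ± 0.15. The other 3 HBB probe sets were at 0.10, -0.31 and -0.06.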
